A study of Mus musculus with 96 samples.

Results

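The glycolytic enzymes described here are the products of 10 genes taken by symbol, Gpi1, Pfkl, Pfkp, Aldoa, Tpi1, Pgk1, Pgam1, Eno1, Pkm and Ldha. Together they run the reactions from glucose-6-phosphate to lactate, except that of glyceraldehyde-3-phosphate dehydrogenase (Gapdh), which is not on the list. Of the 10 genes, 9 had a row in the table of 24057 genes, of which 13334 had a value above 0 in a kept cell. Eno1, which encodes an enolase, was not analysed here. Transcript levels were measured in single EL4 cells, a mouse T lymphoma line labelled as C57BL/6 (C57BL/6 N in the study's methods). Cells of both conditions had been infected with retroviral particles carrying an shRNA and were sorted on GFP 5 days later. The hairpin was directed against luciferase (shLuc) in WT cells and against Ctcf (shCTCF) in CTCF-KD cells, so the controls also carried a vector and a hairpin. The study's methods list 2 hairpins against Ctcf without saying which culture carried which. There were 2 cultures per condition, numbered by experiment, and 24 cells of each were sequenced on the Fluidigm C1 system. All cells came from a single line, and each culture had its own microfluidic circuit, so culture, circuit and, where it differed, hairpin cannot be told apart.

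After removal of 1 shLuc #2 cell with 81 genes, 95 cells with at least 3000 genes remained. Reads recovered from the deposited values ranged from 41591 to 405404 per cell. Genes detected per cell had a median of 4771 and 4635 in the WT cultures shLuc #1 and shLuc #2 and of 6172.5 and 5656 in the CTCF-KD cultures shCTCF #1 and shCTCF #2. All 9 T cell markers were detected, while summed B cell, erythroid and fibroblast markers stayed at or below 4.13 TPM (a gene's share of the transcripts of a cell, adjusted for gene length and scaled to the same total in every cell) in every culture and myeloid markers between 31.3 TPM and 52.1 TPM. The targeted gene was checked first. Mean Ctcf was 60.3 ± 76.8 TPM (SD, n = 24 cells) in shLuc #1 and 16 ± 27.4 TPM (n = 24) in shCTCF #1. It was 37.1 ± 45.5 TPM (n = 23) in shLuc #2 and 44.9 ± 50.0 TPM (n = 24) in shCTCF #2. Mean Ctcf in the second knockdown culture thus went against its label, by far less than the SD over cells, and it is called the culture labelled shCTCF #2. The study itself reported, from Western blots and quantitative PCR of cell populations, less CTCF in both shCTCF #1 and shCTCF #2. Those checks were not analysed here. Differences in level are given with and without the culture labelled shCTCF #2. One cell of that culture also stood apart, with 41591 reads against 86190 in the next shallowest cell, 3150 genes and a summed enzyme level of 5078 TPM, and results that rest on it are likewise given without it.

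Glycolysis splits a hexose into a pair of trioses and oxidises them to pyruvate, with a net gain of ATP. Lactate dehydrogenase then reduces pyruvate to lactate and returns the NAD+ that the pathway needs. Proliferating T cells and lymphoma lines are known for running this route at a high rate even where oxygen is present. CTCF is a zinc finger protein that binds DNA and shapes chromatin loops, and the study asked how its loss changed expression and its variation from cell to cell.

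The enzymes were among the most abundant transcripts of EL4 cells. Aldoa, the aldolase that cleaves fructose-1,6-bisphosphate, ranked 1 of all genes by the mean of the 4 culture means. Ldha, which encodes the lactate dehydrogenase A chain, ranked 8, Pkm, the pyruvate kinase gene, ranked 16, and Gpi1, the glucose-6-phosphate isomerase gene, ranked 32. Tpi1, the triosephosphate isomerase gene, ranked 49. The phosphofructokinase genes Pfkp and Pfkl ranked 153 and 348, Pgk1, the phosphoglycerate kinase gene, ranked 567, and Pgam1, the phosphoglycerate mutase gene, ranked 3643. All were detected in 95 of 95 cells except Pgam1, which was detected in 93.

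The order of the 9 genes by mean TPM was the same in each of the 4 cultures. Aldoa exceeded Ldha by 2.08- to 3.40-fold, and did so in all 95 cells. Ldha exceeded Pkm by 1.21- to 1.95-fold over the cultures, but only in 76 of 95 cells. The step that held in the fewest cells was that from Pfkl down to Pgk1, where the mean log2 ratio was 0.64 ± 0.47 (SD, n = 4 cultures) and Pfkl was higher in 66 of 95 cells. Pgk1 exceeded Pgam1 in all 95 cells, by 7.2- to 8.16-fold. The mean log2 ratio exceeded its SD over cultures for each pair of neighbours, whereas the order held in all 95 cells only at the first and the last step.

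Only uniquely mapped reads were counted, so stretches shared with another gene give a gene fewer reads. Of all 50-base windows of the longest coding transcript in GENCODE, 68% for Pgk1, 41.5% for Pgam1 and 34.4% for Pkm also occurred in another gene, and 5 of 5, 4 of 4 and 7 of 8 of these other genes were annotated as pseudogenes. The share was 25.3% for Gpi1, 17.1% for Pfkp, 16.6% for Ldha, 13.5% for Aldoa, 7.51% for Tpi1 and 0.0543% for Pfkl. The levels of Pgk1 and Pgam1 relative to the other enzymes are therefore uncertain, and the part of these windows in them was not tested. The share was 82.5% for Gapdh, the dehydrogenase between Tpi1 and Pgk1 in the pathway, and 84.5% for Eno1b, an enolase gene.

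The 9 enzymes together took 4.55% ± 1.28 of all TPM (SD, n = 24 cells) in shLuc #1 and 3.89% ± 0.818 (n = 23) in shLuc #2. In shCTCF #1 the share was 3.12% ± 0.642 (n = 24), and in the culture labelled shCTCF #2 it was 3.05% ± 0.922 (n = 24). Both CTCF-KD cultures thus lay below both WT cultures, and the mean over CTCF-KD cultures was 73.2% of that over WT cultures. It was 74% without the culture labelled shCTCF #2, 74.5% without the shallowest cell and 76.8% without Aldoa, which made up between 47.6% and 52.6% of the sum. Single cells overlapped widely. The summed level ran from 22592 TPM to 68189 TPM with a median of 40051 TPM over 47 WT cells, and from 5078 TPM to 49265 TPM with a median of 30388 TPM over 48 CTCF-KD cells. Of the latter, 43 lay below the WT median. The number of genes per cell was higher in the CTCF-KD cultures, and the summed level of the 9 T cell markers was lower there too, at 8407 TPM and 8006 TPM in the WT cultures against 6161 TPM and 5931 TPM. The part of either in the enzyme levels was not tested.

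**Figure D1:**
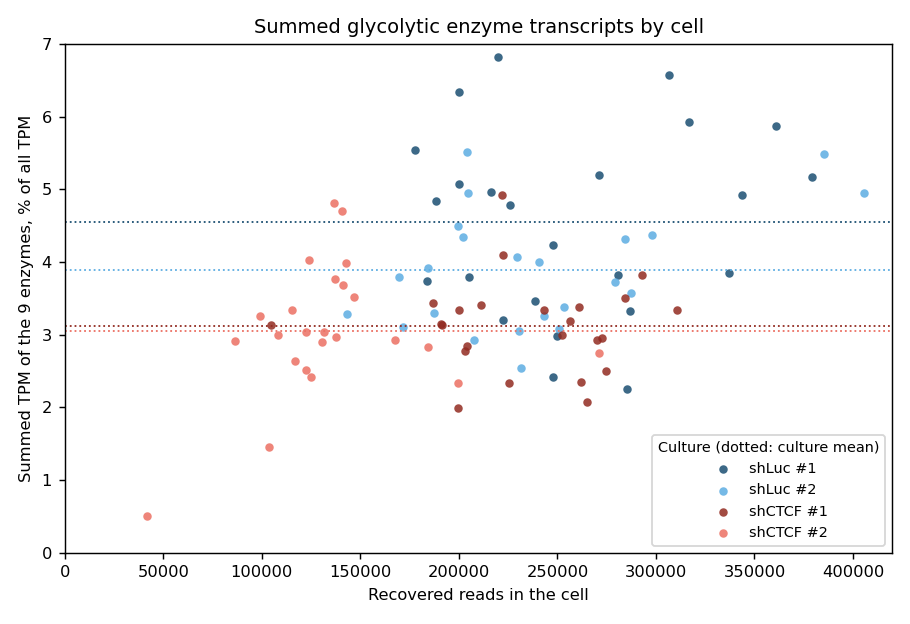
Each point is a cell, placed by its recovered reads (horizontal axis) and by the summed TPM of the 9 enzymes as a percentage of all TPM in the cell (vertical axis), with dotted lines at the 4 culture means. The means of shLuc #1 and shLuc #2 (4.55% and 3.89%) lie above those of shCTCF #1 and the culture labelled shCTCF #2 (3.12% and 3.05%), and the shallowest cell sits alone at the lower left.

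To ask whether each enzyme differed between conditions, culture means were compared with limma on log2(mean TPM + 1), with 2 cultures against 2. All 9 enzymes had a lower estimate in CTCF-KD, beside 47.9% of the 11980 genes tested. Of the enzymes, 8 of 9 had both CTCF-KD cultures below both WT cultures, beside 16.9% of the genes tested. Both CTCF-KD cultures lay above both WT cultures for none of the enzymes and for 19.9% of genes. Among the 402 genes with a mean log2(TPM + 1) above 8, the level of most enzymes, 56.5% had a lower estimate. Of these, 21.4% of the 402 had both CTCF-KD cultures below both WT cultures. None of the enzymes passed an adjusted p of 0.05 in limma, and neither did any gene, lower (0.0%) or higher (0.0%) in CTCF-KD. At an unadjusted p under 0.05, limma gave 1 enzyme, Pfkp, among 338 genes that were lower (2.82%) and 574 that were higher. With the experiment as a block, limma gave 6 of 9 enzymes at an unadjusted p under 0.05 and called none at an adjusted p of 0.05. The same fit gave 12.8% of all genes, and 140 of the 402 genes above 8, at an unadjusted p under 0.05. The median log2 difference of the enzymes was -0.51, against 0.04 over all genes tested and -0.07 over the genes above 8. In experiment 1 the median was -0.56 and in experiment 2 it was -0.48, and without the culture labelled shCTCF #2 it was -0.46. For a single gene, 2 cultures against 2 leave p = 0.333 as the smallest value of an exact two-sided permutation test.

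**Figure D2:**
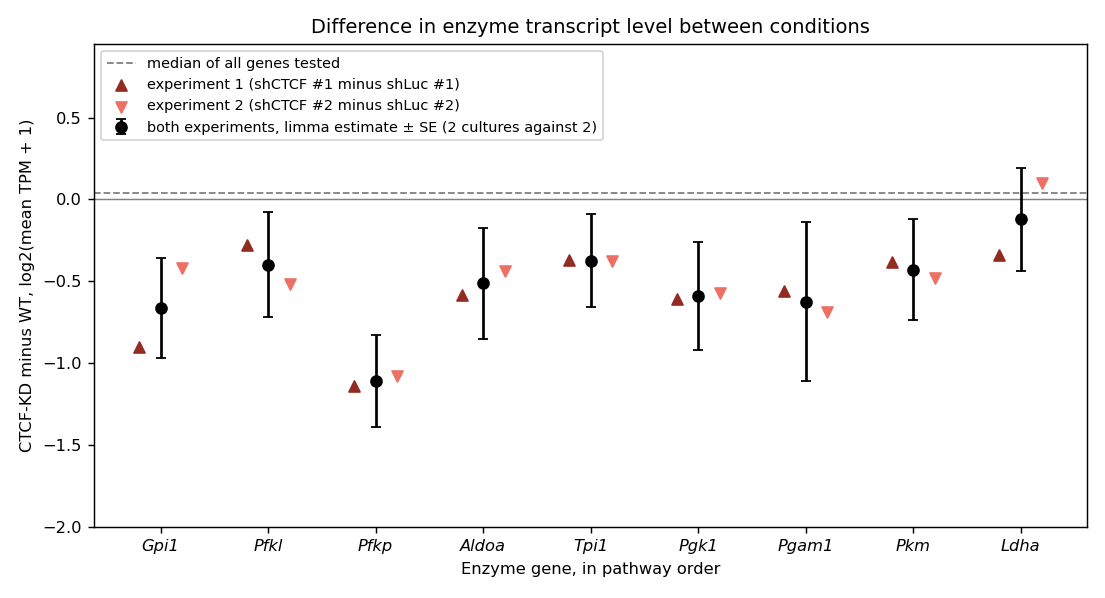
CTCF-KD minus WT difference in log2(mean TPM + 1) for each enzyme (vertical axis) in pathway order (horizontal axis). Black points with bars are the limma estimate ± SE from 2 cultures against 2, triangles are the differences within experiment 1 and experiment 2, and the dashed line is the median of all genes tested (0.04). All points lie below 0 except that of Ldha in experiment 2 (0.10).

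At the entry of the pathway, Gpi1 (chr7:34201330-34230336, minus strand, GRCm38) encodes the isomerase that interconverts glucose-6-phosphate and fructose-6-phosphate. Its mean level was 4319 ± 2071 TPM in shLuc #1 (SD, n = 24), 3214 ± 756 TPM in shLuc #2 (n = 23), 2307 ± 760 TPM in shCTCF #1 (n = 24) and 2403 ± 1173 TPM in the culture labelled shCTCF #2 (n = 24). The 2 conditions did not overlap in culture means, though shLuc #1 and shLuc #2 were also apart. The estimated log2 difference was -0.66 ± 0.31 (SE, limma adjusted p = 0.680), with -0.90 in experiment 1 and -0.42 in experiment 2, and -0.69 without the culture labelled shCTCF #2. Of 48 CTCF-KD cells, 43 were below the WT median of 3452 TPM.

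Phosphofructokinase catalyses the committed step, the phosphorylation of fructose-6-phosphate, and is a tetramer of chains encoded by Pfkl, Pfkp and Pfkm. Pfkp (chr13:6579768-6648777, minus strand) showed the largest difference of the 9 enzymes. Its mean level was 1288 ± 733 TPM in shLuc #1, 1127 ± 660 TPM in shLuc #2, 584 ± 306 TPM in shCTCF #1 and 533 ± 279 TPM in the culture labelled shCTCF #2. The culture means of the 2 conditions were far apart relative to the distance between cultures of 1 condition. The log2 difference was -1.11 ± 0.28 (SE, limma unadjusted p = 0.0064, adjusted p = 0.585). It was -1.14 in experiment 1, -1.08 in experiment 2, and -1.04 without the culture labelled shCTCF #2 (limma adjusted p = 0.839, from a fit in which the 1 CTCF-KD culture left is assumed to vary like the WT cultures). Among CTCF-KD cells, 45 of 48 lay below the WT median of 1035 TPM.

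Pfkl (chr10:77986947-78010083, minus strand) was lower by less. Its mean level was 594 ± 385 TPM in shLuc #1, 494 ± 324 TPM in shLuc #2, 489 ± 307 TPM in shCTCF #1 and 345 ± 166 TPM in the culture labelled shCTCF #2. The means of shLuc #2 and shCTCF #1 were nearly the same, and the conditions overlapped when RPM (recovered reads scaled to the total of a cell, with no length term) or means over log values were used. The log2 difference was -0.40 ± 0.32 (SE, limma adjusted p = 0.810) and -0.15 without the culture labelled shCTCF #2. As a result the makeup of the phosphofructokinase transcripts differed. Pfkp was 66.6% of the summed TPM of the 3 genes in shLuc #1 and 67.6% in shLuc #2, against 51.9% in shCTCF #1 and 56.7% in the culture labelled shCTCF #2, while Pfkm stayed between 2.74% and 6.56%. The log2 ratio of Pfkp to Pfkl was 1.12 and 1.19 in the WT cultures and 0.26 and 0.63 in the CTCF-KD cultures. The conditions did not overlap, which in 2 cultures against 2 gave p = 0.333 in an exact two-sided permutation test, the smallest it can reach. Within cells, Pfkp exceeded Pfkl in 19 of 24, 18 of 23, 17 of 24 and 18 of 24 cells in the same order of cultures, so the count of cells moved less than the ratio of means.

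Aldoa lies on chromosome 7 (chr7:126795234-126800751, minus strand, GRCm38). Its mean level was 23919 ± 9377 TPM in shLuc #1, 19668 ± 5087 TPM in shLuc #2, 15939 ± 4062 TPM in shCTCF #1 and 14527 ± 5489 TPM in the culture labelled shCTCF #2. Culture means did not overlap between conditions. The log2 difference was -0.51 ± 0.34 (SE, limma adjusted p = 0.775), with -0.59 in experiment 1 and -0.44 in experiment 2, and -0.44 without the culture labelled shCTCF #2. Aldoa supplied at least 97.4% of the summed TPM of Aldoa and Aldoc in every culture. The level of Aldoc was 631 TPM and 500 TPM in the WT cultures against 225 TPM and 127 TPM in the CTCF-KD cultures.

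Tpi1 (chr6:124810586-124814296, minus strand) encodes the isomerase of the trioses that aldolase releases. Its mean level was 2135 ± 1099 TPM in shLuc #1, 2408 ± 766 TPM in shLuc #2, 1650 ± 721 TPM in shCTCF #1 and 1853 ± 689 TPM in the culture labelled shCTCF #2. The log2 difference was -0.37 ± 0.28 (SE, limma adjusted p = 0.794), and the values within the experiments were -0.37 and -0.38. It was -0.46 without the culture labelled shCTCF #2.

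The product of Pgk1 (chrX:106187100-106203699, plus strand) makes ATP from 1,3-bisphosphoglycerate, and that of Pgam1 (chr19:41911923-41918660, plus strand) moves the remaining phosphate along the carbon chain. Pgk1 averaged 325 ± 124 TPM in shLuc #1, 423 ± 122 TPM in shLuc #2, 213 ± 72 TPM in shCTCF #1 and 285 ± 126 TPM in the culture labelled shCTCF #2. Pgam1 averaged 44 ± 19 TPM, 56.8 ± 33 TPM, 29.5 ± 16.8 TPM and 34.9 ± 20.2 TPM in the same order. For both genes the second culture of a condition was the higher, and the conditions still did not overlap. The log2 differences were -0.59 ± 0.33 for Pgk1 and -0.62 ± 0.49 for Pgam1 (SE, limma adjusted p = 0.749 and 0.798), and -0.80 and -0.74 without the culture labelled shCTCF #2. Pgam1 rested on between 105 and 276 reads per culture, the fewest of the 9 genes. Its muscle partner Pgam2 was detected in at most 2 cells of a culture. Pgam2 was still 23.6% of the summed TPM of the pair in shCTCF #1, from 2 cells, and at most 3.58% in the other cultures.

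Pkm (chr9:59656368-59679375, plus strand) and Ldha close the pathway, the former with the second ATP-forming step and the latter with the reduction of pyruvate. Pkm averaged 5814 ± 1801 TPM in shLuc #1, 4992 ± 1640 TPM in shLuc #2, 4469 ± 1534 TPM in shCTCF #1 and 3577 ± 1166 TPM in the culture labelled shCTCF #2. The log2 difference was -0.43 ± 0.31 (SE, limma adjusted p = 0.788), with both CTCF-KD means below both WT means on the TPM scale but not as RPM. It was smaller, -0.27, without the culture labelled shCTCF #2. Pkm and Ldha were at least 99.97% of the summed TPM of their pairs with Pklr and Ldhb.

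Ldha (chr7:46841475-46855627, plus strand) was the 1 enzyme whose culture means overlapped. It averaged 7034 ± 2433 TPM in shLuc #1, 6529 ± 1600 TPM in shLuc #2, 5554 ± 2033 TPM in shCTCF #1 and 6989 ± 2435 TPM in the culture labelled shCTCF #2. The last of these lay between the WT means. The log2 difference was -0.12 ± 0.31 (SE, limma adjusted p = 0.954), with -0.34 in experiment 1 and 0.10 in experiment 2, and -0.29 without the culture labelled shCTCF #2. Of 48 CTCF-KD cells, 30 were below the WT median of 6697 TPM, the fewest among the 9 enzymes.

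**Figure D3:**
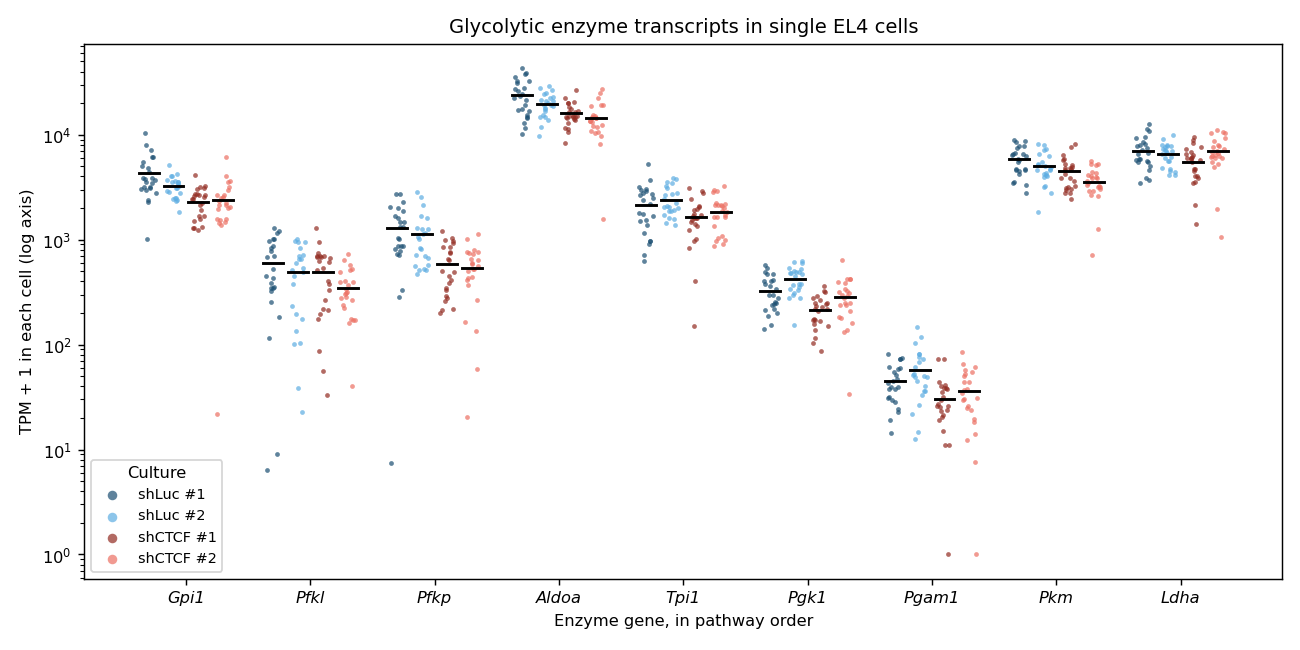
TPM + 1 of each enzyme in each of 95 cells (vertical log axis), with the genes in pathway order (horizontal axis), points coloured by culture and black bars at culture means. The cells of the 4 cultures overlap for every gene, the bars of the CTCF-KD cultures lie below those of the WT cultures for all genes but Ldha, and by culture mean Aldoa is highest and Pgam1 lowest in each culture.

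The promoters of the genes with the largest and the smallest difference, Pfkp and Ldha, are printed here with that of Pgk1 between them, from the RefSeq promoter table (GRCm38.p6), as windows of 300 bases around a transcription start. Capitals mark matches, on either strand, to ACGTG or GCGTG, the core letters of the site bound by hypoxia-inducible factors, and to CACGTG, the E-box bound by MYC and its relatives, which contains ACGTG. On the minus strand of chromosome 13 the Pfkp window was chr13:6648722-6649021, on the plus strand the Pgk1 window was chrX:106186850-106187149 and the Ldha window chr7:46845554-46845853.
Pfkp: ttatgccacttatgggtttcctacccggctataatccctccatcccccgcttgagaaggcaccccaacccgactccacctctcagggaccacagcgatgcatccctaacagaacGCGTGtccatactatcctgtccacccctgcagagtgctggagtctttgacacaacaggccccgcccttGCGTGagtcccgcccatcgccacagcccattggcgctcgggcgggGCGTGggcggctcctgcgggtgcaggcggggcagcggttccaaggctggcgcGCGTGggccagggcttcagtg
Pgk1: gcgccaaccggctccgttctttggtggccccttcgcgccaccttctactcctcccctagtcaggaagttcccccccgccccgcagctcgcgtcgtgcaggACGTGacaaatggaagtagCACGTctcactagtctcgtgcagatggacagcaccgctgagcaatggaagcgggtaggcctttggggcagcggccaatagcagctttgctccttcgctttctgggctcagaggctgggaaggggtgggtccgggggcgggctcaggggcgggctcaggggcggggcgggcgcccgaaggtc
Ldha: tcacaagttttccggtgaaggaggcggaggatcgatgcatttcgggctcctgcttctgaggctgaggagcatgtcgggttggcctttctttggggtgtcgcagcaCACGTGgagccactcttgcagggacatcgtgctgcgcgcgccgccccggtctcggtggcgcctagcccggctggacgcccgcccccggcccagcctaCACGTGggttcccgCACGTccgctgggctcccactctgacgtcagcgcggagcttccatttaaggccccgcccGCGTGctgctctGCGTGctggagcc
The Pfkp window held 4 matches to GCGTG and none to ACGTG, the Pgk1 window 2 matches to ACGTG, and the Ldha window 5 matches to ACGTG over both strands, 4 of them in its 2 E-boxes, and 2 to GCGTG. Counting all windows of a gene, ACGTG occurred in 5 of 9 enzyme genes and in 21.8% of 27025 genes, GCGTG in 4 of 9 and 35.2%, and CACGTG in 1 of 9 and 8.09%. The GC box GGGCGG was found in 9 of 9 enzyme genes and in 38.2% of all genes. These are matches of letters only and do not show that a factor was bound.

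Other genes of glycolysis and its regulation were taken from a list of 30, of which 22 passed the filter on low values. Of these, 12 had a lower and 10 a higher estimate in CTCF-KD, beside 47.9% of all genes with a lower estimate. There were 7 below and 3 above without overlap (16.9% and 19.9% of all genes). Limma called none of the 22 at an adjusted p of 0.05, with 1 lower and 1 higher at an unadjusted p under 0.05. The median log2 difference of the 22 genes was -0.11, between that of the enzymes and that of all genes. The lowest statistics belonged to Aldoc, a second aldolase (-1.72 ± 0.38, SE, limma adjusted p = 0.585), and Slc2a3, a glucose transporter (-0.75 ± 0.32, adjusted p = 0.656). Mean Slc2a3 was 376 TPM and 449 TPM in the WT cultures and 215 TPM and 277 TPM in the CTCF-KD cultures. The highest belonged to Tigar, a phosphatase that lowers fructose-2,6-bisphosphate (2.61 ± 0.85, adjusted p = 0.597), and Bpgm, the bisphosphoglycerate mutase gene (1.24 ± 0.72, adjusted p = 0.752). Both were sparse, so that their fitted differences depend on the pseudocount, Tigar with 1, 1, 9 and 12 cells and Bpgm with 2, 7, 10 and 9 cells above 0 in shLuc #1, shLuc #2, shCTCF #1 and the culture labelled shCTCF #2. More genes were detected per cell in the CTCF-KD cultures, and the part of this in the sparse genes was not tested. Gapdh differed by -0.14 ± 0.28 (limma adjusted p = 0.939) with overlapping cultures, and Eno1b by -0.29 ± 0.28 (adjusted p = 0.848). Without the culture labelled shCTCF #2, the differences were -1.31 for Aldoc, -0.93 for Slc2a3, 1.84 for Tigar and 0.85 for Bpgm. In the same fit 13 of the 22 genes had a lower estimate, beside 6212 of 11980 genes, and the median of the 22 was -0.17.

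The study set out to measure variation from cell to cell, and most enzymes varied little. Over the cells of a condition, the coefficient of variation (CV) of log2(TPM + 1) ran from 0.0345 for Ldha to 0.205 for Pfkl in WT and from 0.0444 for Aldoa to 0.265 for Pgam1 in CTCF-KD, against medians of 1.07 and 0.800 over 7843 genes with a mean above 1. Without the shallowest cell the range in CTCF-KD was 0.0289 to 0.218, between the same genes. The CV falls with level, so each enzyme except Aldoa was also set beside genes within 0.5 of its mean log2(TPM + 1). Aldoa had too few such genes, with 0 in shLuc #1 and in shLuc #2, 3 in shCTCF #1 and 2 in the culture labelled shCTCF #2. For Ldha, Pkm, Tpi1 and Gpi1 the SD was neither high nor low in all cultures, with between 15% and 97.1% of such genes below it. The highest share was that of Gpi1 in the culture labelled shCTCF #2, and it was 70% without the shallowest cell. Ldha and Tpi1 came next, with 94.1% and 91.7% in shCTCF #1. Pgk1 had an SD of 0.57, 0.48, 0.53 and 0.83 in shLuc #1, shLuc #2, shCTCF #1 and the culture labelled shCTCF #2, and only 3.98%, 3.85%, 4.34% and 16.2% of genes at a like level had a lower SD. Pgam1 had an SD of 0.66, 0.89, 1.20 and 1.32, with 0.356%, 1.41%, 3.88% and 1.71% of genes at a like level below it. Without the shallowest cell, the share below Pgk1 was 4.99% and that below Pgam1 was 0.497%. Pgk1 and Pgam1 thus had a narrow distribution over cells for genes of their measured level. These are also the genes with the highest share of windows that occur elsewhere, and the part of this in their level and spread was not tested.

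Pfkl and Pfkp had the highest mean SD of the enzymes in the WT cultures, 1.74 and 1.24. In shLuc #1, Pfkl ranged from 5.39 TPM to 1291 TPM with a median of 483 TPM, and Pfkp from 6.38 TPM to 2748 TPM with a median of 1175 TPM. Their SDs of 1.96 and 1.71 exceeded those of 75.6% and 91.1% of genes at a like level. Pfkp did not stand out in shLuc #2, where its SD of 0.77 exceeded that of 47.9% of such genes. For Pgam1, counting error alone, taken as Poisson, made up 25.7% to 68.3% of the squared CV of TPM in the 4 cultures, and for the other enzymes at most 17.6%.

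**Figure D4:**
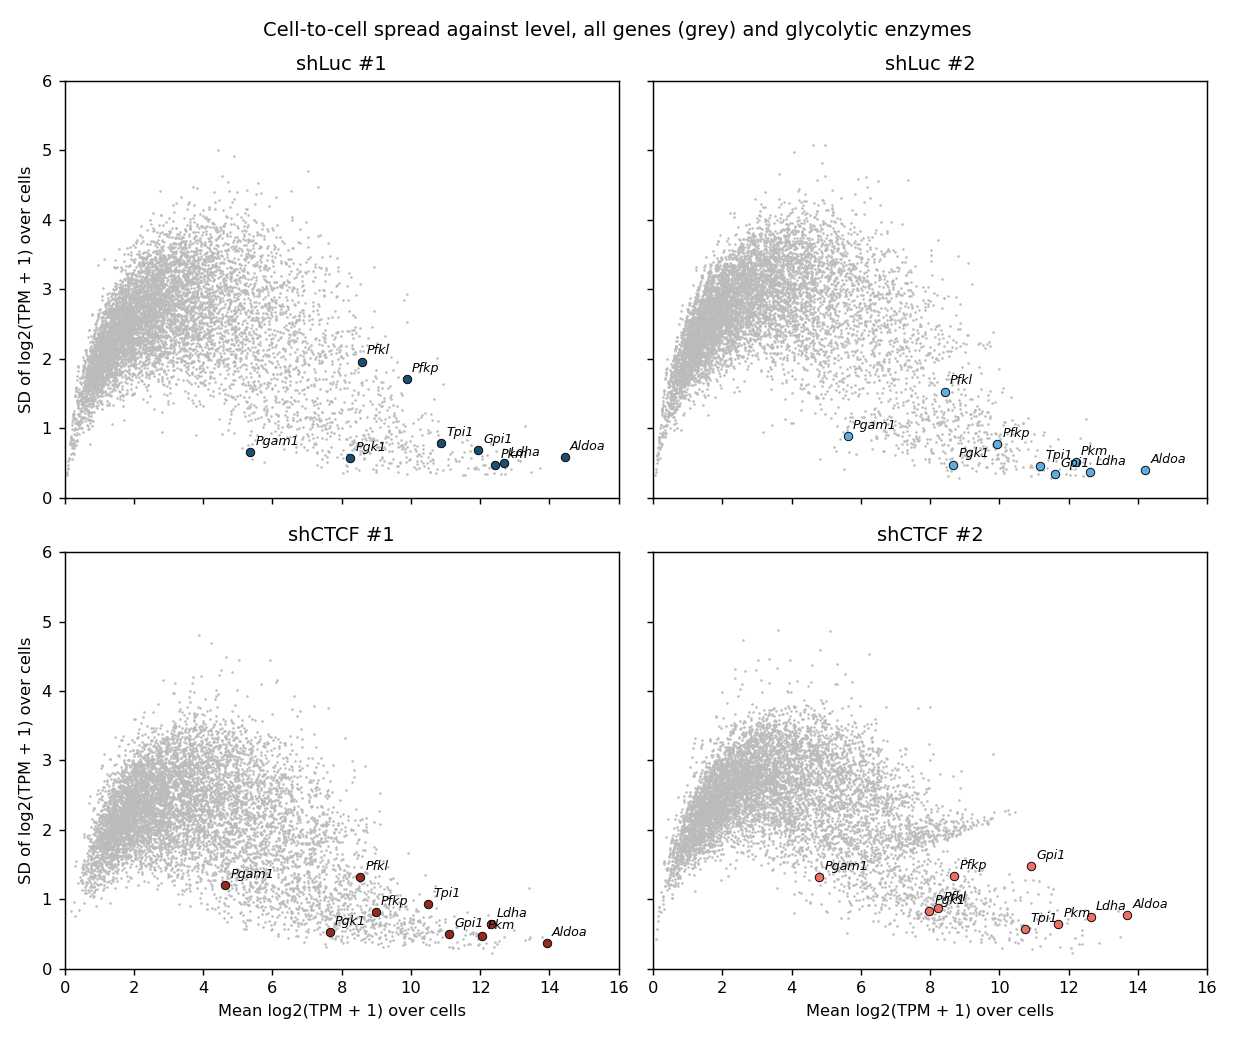
SD of log2(TPM + 1) over cells (vertical axis) against its mean (horizontal axis) in each culture, for 7843 genes (grey) and the 9 enzymes (coloured, named). Pgam1 and Pgk1 lie along the lower edge of the cloud, Pfkl lies well inside it, and Gpi1 moves up in the culture labelled shCTCF #2, where the shallowest cell is included.

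By the rule that calls a gene when the CTCF-KD minus WT difference in CV lies over 1 SD from its mean over all genes, none of the enzymes was called, beside 7.68% of genes called higher and 11.3% called lower. The CV was lower in CTCF-KD for 81.5% of genes, and it was higher in CTCF-KD for 7 of 9 enzymes. The latter count rested on the shallowest cell, without which it was 4 of 9, with a lower CV for 83.9% of genes. The closest to the upper limit of 0.127 was Pgam1, whose CV was 0.142 in WT and 0.265 in CTCF-KD, a difference of 0.122. This closeness rested on the shallowest cell, which held Pgam1 at 0 TPM. Without it the CV of Pgam1 in CTCF-KD was 0.218, a difference of 0.0754 against an upper limit of 0.113. Without the culture labelled shCTCF #2, Pgam1 passed the rule, beside 7.87% of genes called higher. The SDs of the 4 cultures were also compared with limma, which called 0.663% of genes (52 genes) and none of the enzymes at an adjusted p of 0.05, nor any enzyme at an unadjusted p under 0.05, beside 15.2% of genes. With the experiment as a block it called 0 genes. Without the shallowest cell it called 255 genes, again with none of the enzymes. The median difference in SD was 0.13 for the enzymes and -0.23 for all genes, and 0.0033 and -0.26 without the shallowest cell. Without shCTCF #1, limma called Gpi1, with a difference of 0.96 (adjusted p = 0.0203), where again the lone CTCF-KD culture is assumed to vary like the WT cultures. That value rests on the shallowest cell, which held Gpi1 at 20.8 TPM. Without this cell the SD of Gpi1 in the culture labelled shCTCF #2 was 0.54 in place of 1.47.

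Transcripts of the enzymes varied together over the cells of a culture. The median Pearson r of log2(TPM + 1) over the 36 pairs of enzymes was 0.39 in shLuc #1 (24 cells), 0.19 in shLuc #2 (23 cells), 0.19 in shCTCF #1 (24 cells) and 0.54 in the culture labelled shCTCF #2 (24 cells). Over all pairs of the 7843 genes the medians were between 0.02 and 0.04, and over pairs of the 402 genes above 8 they were 0.00, 0.01, 0.00 and 0.24 in the same order. The cells of a culture share a circuit and differ in depth, so these values are descriptions. Without the shallowest cell, the median in the culture labelled shCTCF #2 was 0.31 for the enzymes and 0.01 for the 402 genes. The values of the WT and CTCF-KD cultures overlapped. After removal in each culture of the 2 cells farthest from the median of the summed level, the medians were 0.20, 0.12, 0.10 and 0.17. This removal was made on the sum of the enzymes themselves, which by itself lowers the correlations between them.

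Of the 36 pairs, 22 had r above 0 in all 4 cultures, with or without the shallowest cell. The highest mean r over cultures belonged to Aldoa and Pkm (0.57), with 0.52, 0.40, 0.44 and 0.90 in shLuc #1, shLuc #2, shCTCF #1 and the culture labelled shCTCF #2, and the mean was 0.54 without the shallowest cell. Pkm and Ldha followed at 0.52 and Pgk1 and Pkm at 0.51, which became 0.45 and 0.41 without that cell, where Pfkl and Tpi1 at 0.44 came before the latter pair. The lowest mean was -0.04, for Gpi1 and Pfkl, which catalyse neighbouring steps, and without the shallowest cell it was -0.02, for Gpi1 and Pgam1. Gpi1 and Tpi1 ranged from -0.42 in shCTCF #1 to 0.28 in the culture labelled shCTCF #2, and the pair Tpi1 and Pgam1 reached 0.79 in shCTCF #1 but 0.13 in shLuc #2. Single pairs therefore differed between cultures, and Pkm and Ldha were the enzymes with the highest median r to the others (means over cultures of 0.40 and 0.41). The lowest was that of Pfkl (0.19), an order that rested on the shallowest cell, since with culture means subtracted Pfkl stood at 0.19 with that cell and at 0.25 without it, above Gpi1 at 0.14.

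**Figure D5:**
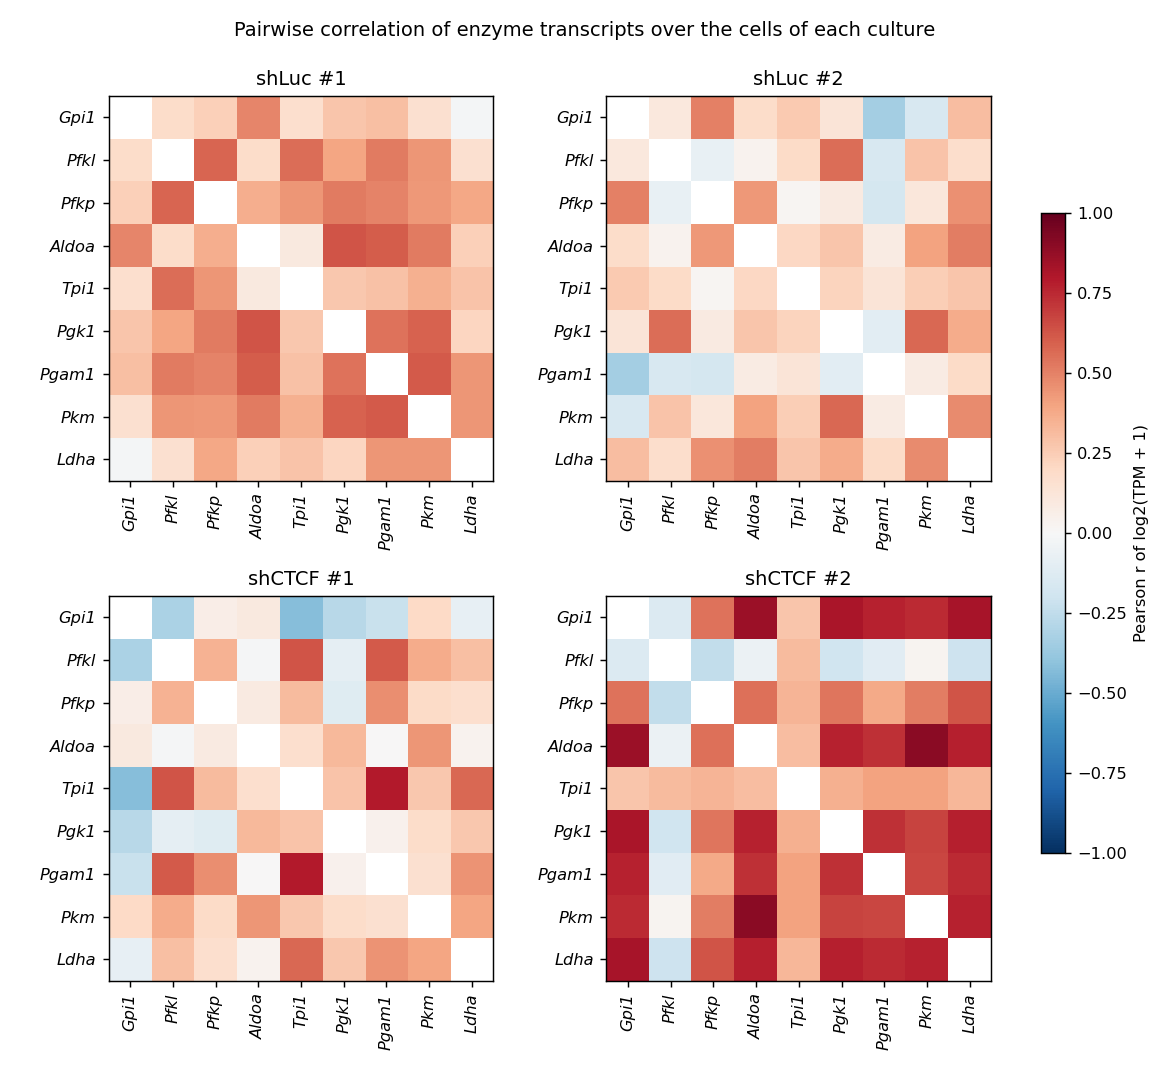
Pearson r of log2(TPM + 1) between each pair of enzymes (rows and columns in pathway order) over the cells of each culture, from blue (-1) through white (0) to red (1), with the diagonal left blank. The median of the 36 pairs is 0.39 and 0.19 in the WT panels and 0.19 and 0.54 in the CTCF-KD panels, and in the culture labelled shCTCF #2 the row of Pfkl stays pale or blue, with the shallowest cell included.

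Genes outside the list were ranked by the median r with the 9 enzymes, over cells after subtraction of culture means. With all 95 cells, the first 5 of 7834 genes were Fau, Spcs1, Rhox5, Dpysl2 and Eno1b, with medians between 0.454 and 0.466. Without the shallowest cell, Fau fell to rank 139 and Rhox5 to rank 2122, and Eno1b stood at rank 6 (median r = 0.287). The first place was then taken by Gapdh, the glycolytic dehydrogenase, at 0.410, and Cct7, C330006A16Rik and Mt1 were also among the first 5. None of the first 5 was shared between the 2 rankings. The median r of Gapdh with the enzymes was 0.46, 0.34, 0.41 and 0.39 in the 4 cultures without that cell. On the same scale, without the shallowest cell, the median r of an enzyme with the other 8 ran from 0.14 for Gpi1 to 0.34 for Ldha, against a median over all genes of 0.02. Placed among the 7834 other genes by this value, Ldha took rank 3, Aldoa, Tpi1 and Pkm rank 4, Pfkp rank 5, Pgk1 rank 8, Pfkl rank 13, Pgam1 rank 29 and Gpi1 rank 420.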

How the data were processed

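Single EL4 cells of 2 shLuc (WT) and 2 shCTCF (CTCF-KD) cultures were sequenced by the authors on the Fluidigm C1 system, and the deposited values are TPM, with one column per cell and the same total in each cell. According to the study's methods and processing notes, reads were aligned with STAR to GRCm38, uniquely mapped reads were counted with HTSeq, and the cell filter had not been applied to the table. TPM is relative to the total of a cell, so a lower value is a smaller share of its transcripts. The columns of the table all belong to labelled samples.

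Here, cells with at least 3000 genes above 0 were kept. Whole reads were recovered as the common step of each gene (13334 of 13334 genes within 0.001 of whole numbers, of which 1336 had a value in 1 cell and could not be checked) and served for depth, RPM and thinning to 80000 reads. Depth limits Pgam1 and sparse genes most. No molecular identifiers were described, so counting error is a lower limit. The culture was the replicate, since cells of a culture are not independent. Where the sources do not say that cultures were grown separately, p-values measure only the spread between these cultures. Means of TPM per culture were compared as log2(mean TPM + 1) with limma 3.58.1 (eBayes with trend, Benjamini-Hochberg adjustment) in R 4.3.3, for genes where 2 or more cells had a log2(TPM + 1) above 1. With a culture left out, the lone culture of its condition was assumed to vary like the other 2. Spread was compared with the CV rule of the study and with limma on culture SDs. Correlations were computed in Python 3.11.15. The read recovery and the limma fit were tested on simulated data, as were the formulas of the CV rule and the pairwise correlation. The other steps were not.

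The enzymes and the lists were chosen with earlier results of these data known. All enzymes, Ctcf, the 2 highest and 2 lowest statistics of the pathway list, isoform partners and the 5 genes most like the enzymes were named, except for genes that are not reported here. Gapdh was singled out among the pathway genes after its values were seen. The numbers of the cultures pair them, as the study describes an initial experiment with shLuc #1 and shCTCF #1 and a second one. Deviations of same-numbered cultures from their condition mean correlated at r = 0.18 over 11980 genes and at r = 0.27 over the 7843 genes with a mean above 1. Alternatives were another pseudocount, filter, unit and scale, each culture left out, the replicate block, thinning and, chosen after seeing the data, the sum without Aldoa and the results without the shallowest cell. Sequences came from RefSeq (13 promoter windows matched 9 of 9 enzymes), positions from GENCODE for GRCm38.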

Additional observations from a re-analysis of the deposited data

Results flagged for a closer look

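Ldha was the only one of the 9 enzymes whose difference in log2(mean TPM + 1), CTCF-KD minus WT, had opposite signs in the 2 experiments, -0.34 in experiment 1 and 0.10 in experiment 2, and this difference between experiments was not tested. Ctcf itself also had opposite signs, with -1.85 in experiment 1 and 0.27 in experiment 2, which was not tested either. Whether the signs of Ldha and Ctcf are connected was not tested. The other 8 enzymes had a lower value in both experiments.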

How the results depend on the processing

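No enzyme was called for expression by limma under any alternative, and the number of enzymes whose cultures did not overlap was 8 in most. It was 7 with means over log values (Pfkl overlapped too), beside 10.1% of all genes, 6 with RPM (Pfkl and Pkm too), beside 16%, and 8 to 9 with a culture left out, beside 26.6% to 37.9%. Means over log values called 46 genes and moved the median of all genes to 0.23, against -0.52 for the enzymes. With the replicate block of culture number, limma called 0 enzymes and 0 genes. At an unadjusted p under 0.05 it gave 6 of 9 enzymes, beside 1531 of 11980 genes. Among the 402 genes with a mean log2(TPM + 1) above 8 it gave 140. The lowest adjusted p of an enzyme was 0.198, that of Pfkp. The paired fit changed no call of an enzyme. The log2 difference of Ldha ran from -0.29 to 0.0445 with a culture left out, and the change of sign came without shCTCF #1. The CV rule called 0 enzymes, but 2 with the SD in place of the CV (Gpi1 and Pgam1). It called 4 with a pseudocount of 10 (Gpi1, Pgk1, Pgam1 and Ldha). All of these were higher in CTCF-KD, where 13.4% and 13% of genes were called higher. Both settings include the shallowest cell and were not run without it. Without that cell, the difference in culture SDs fell from 0.47 to 0.0033 for Gpi1 and from 0.49 to 0.25 for Pgam1. It fell from 0.16 to 0.026 for Pgk1 and from 0.26 to 0.14 for Ldha. With a culture left out, the CV rule called 0 to 1 (Pgam1, without the culture labelled shCTCF #2), beside 7.01% to 8.31% of genes called higher. Limma on SDs called 0 to 1 with a culture left out (Gpi1, without shCTCF #1). The mean over cultures of the median pairwise r was 0.328, and 0.148 after removal in each culture of 2 cells, chosen by the enzymes' own sum. Limma on SDs called 52 genes in all, 329 with the CV, 0 with the block and 18 to 274 with a culture left out. Depth limits Pgam1, with 105 to 276 reads per culture.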
